A study of Sus scrofa with 8 samples.

Results

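The genes described here are those with which the lining of the small intestine takes up dietary fatty acids and rebuilds them into triglyceride. They are CD36, SCARB1, SLC27A4, FABP1, FABP2, ACSL5, MOGAT2, DGAT1, DGAT2 and PLIN2. A probe represented a gene when the transcript accession given for it on the array carried that gene's symbol, and the probe with the brightest mean signal over all arrays stood for the gene. Of the 10 genes, 8 had such a probe, out of 3216 symbols with a probe in the whole series. SLC27A4 and MOGAT2 had none and were not analysed here. The samples were pieces of middle jejunum, each about 2 cm long, from crossbred piglets (Duroc × Landrace) aged 25 days. In the weaned group, 4 piglets had been taken from the sow at 21 days, 4 days before sampling. They ate a basal diet in which digestible energy was 14.48 MJ/kg and crude protein 20.50%. In the suckling group, 4 piglets stayed with the sow as controls. Each group took 1 piglet from each of 4 litters, and each array held the RNA of 1 piglet.

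Milk fat reaches the jejunum as free fatty acids and monoacylglycerols, the products of its digestion. Enterocytes, the absorptive cells of the villi, take these up, carry them on cytosolic binding proteins, couple fatty acids to coenzyme A and rebuild triglyceride on the endoplasmic reticulum. Most of it leaves the cell in chylomicrons, and the rest is held for a time in lipid droplets. Sow milk is rich in fat, and the comparison asks how jejunal transcripts differ between piglets weaned 4 days earlier and piglets that still suckle.

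All levels below are log2 intensities of 1 probe relative to the 75th percentile of its array, so 0 marks that percentile and each step of 1 doubles the intensity. That percentile was 244 intensity units in suckling replicate 1 and lay between 315 and 393 in the other 7 arrays. All weaned arrays lay on 1 slide and all suckling arrays on another, so a slide effect and the effect of weaning cannot be told apart. The median coefficient of variation of repeated probes was 6.04% to 7.98% on the weaned arrays and 8.53% to 10.9% on the suckling arrays. The quality check of the extraction software read in range on every weaned array and to be evaluated on every suckling array. The part of array quality in the spread of the suckling values was not tested. Each sample was a mixed piece of gut wall, in which fewer cells of a type and less RNA per cell cannot be told apart. Of 15 structural markers of epithelium, 3 had a probe (EPCAM, CDH1 and KRT8), and of 11 digestive markers of enterocytes, 5 had one. All 8 were well above background on all 8 arrays. The adipocyte marker PLIN1 was not well above background on any array, and the marker of distal small intestine SLC10A2 was so on 4 weaned and 2 suckling arrays. Suckling replicate 1, the array with the lowest percentile, was also lowest of its group for 5 of the 8 fat absorption genes with a probe, as it was for 30.4% of tested probes. It was the lowest of all 8 arrays for 19.0% of tested probes and the highest for 20.6%. Results are given with and without it.

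None of the 8 fat absorption genes passed the threshold between weaned and suckling piglets (limma with Benjamini-Hochberg adjustment over all 30554 tested probes, adjusted p under 0.05), and none did at an unadjusted p under 0.05. Over all tested probes 0.177% passed (0.173% with higher and 0.00327% with lower values in weaned piglets), and 12.3% had an unadjusted p under 0.05. The mean was lower in weaned piglets for 5 of the 8 genes, against 45.1% of all tested probes. The median log2 difference of the 8 genes was -0.12, against 0.04 over all tested probes. The groups overlapped for every one of the 8, while they did not overlap for 7.76% of tested probes. Of the 8, DGAT2 and SCARB1 had the largest differences between group means, both lower in weaned piglets. The differences of FABP1, CD36 and ACSL5 were 0.01, 0.03 and -0.03.

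**Figure D1:**
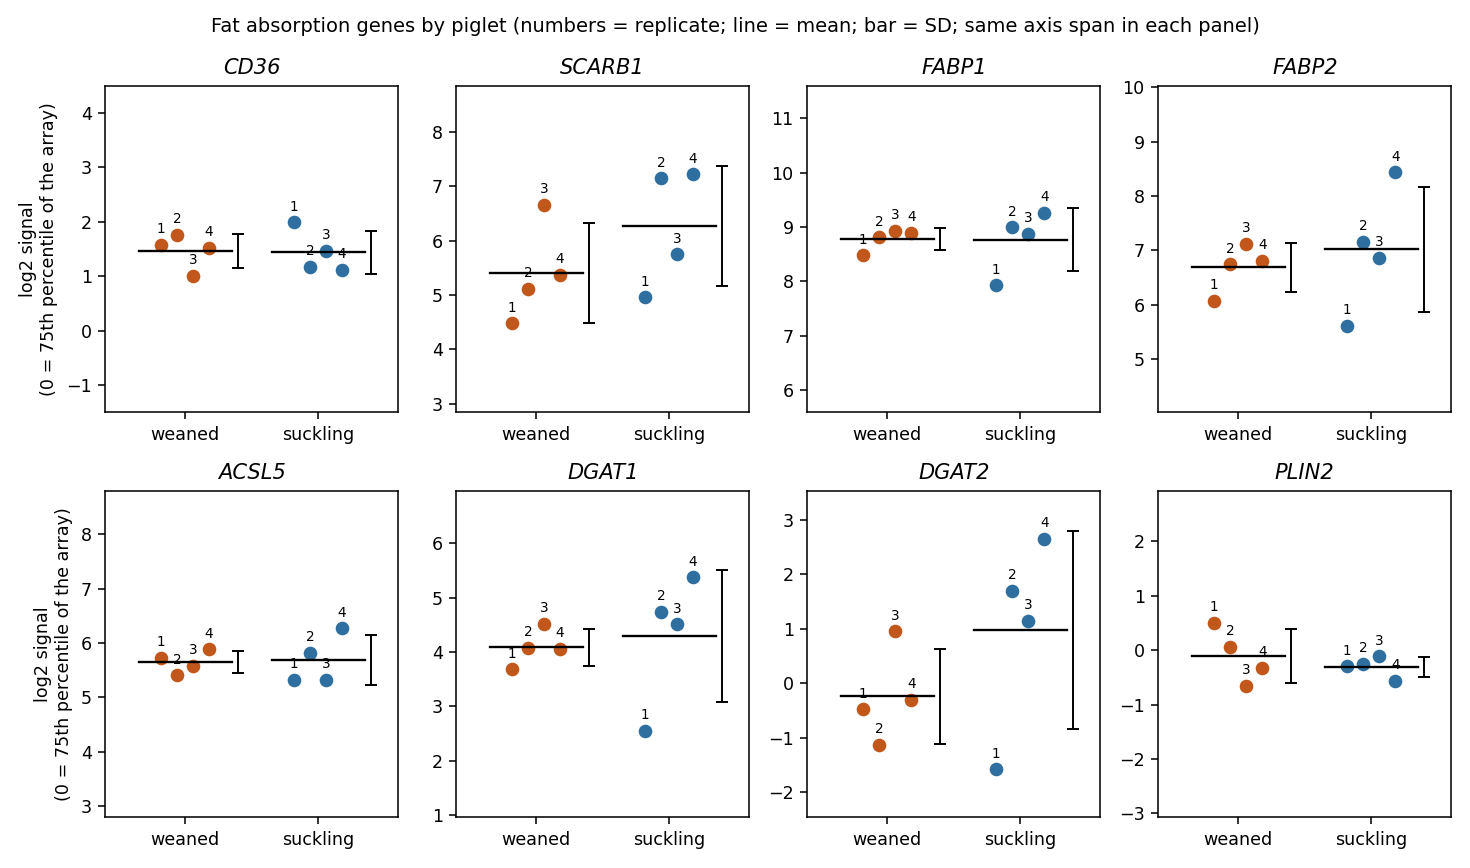
Log2 signal of each of the 8 fat absorption genes by piglet, weaned at left and suckling at right, with the replicate number over each point, the mean as a line and the SD as a bar (n = 4 per group). The groups overlap in every panel, and suckling replicates 1 and 4 are the lowest and the highest points for FABP1, FABP2, DGAT1 and DGAT2.

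CD36, a membrane receptor that binds long-chain fatty acids, had nearly equal group means. Its probe (A_72_P569934) gave 1.58, 1.76, 1.01 and 1.52 in weaned replicates 1 to 4, against 1.99, 1.18, 1.46 and 1.12 in suckling replicates 1 to 4. The ranges overlapped almost wholly, with suckling replicate 1 highest and weaned replicate 3 lowest. The difference was 0.03 on the log2 scale (SE 0.24, 95% interval -0.51 to 0.57, limma adjusted p = 0.973), an interval from 0.70-fold to 1.49-fold. The 4 CD36 probes gave differences between -0.07 and 0.04. CD36 is also known from vessel walls and fat cells. The 4 endothelial markers with a probe, of 5 listed, had lower means in weaned piglets, with none past the threshold. Their summed signal was at most 11.9 times the 75th percentile in weaned arrays and at least 13.2 times in suckling arrays. The 6 adipocyte markers summed to 8.14 to 11.6 times that percentile in weaned and 7.22 to 13.4 in suckling arrays. Most of that sum came from LIPE and CIDEC, which are also counted below among the lipid droplet and lipolysis genes. The part of either in the CD36 values was not tested.

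SCARB1, the scavenger receptor class B type 1, which takes up lipid and sterol at the brush border, spread widely in both groups. Its probe (A_72_P185186) gave 4.48, 5.11, 6.66 and 5.37 in weaned replicates 1 to 4, against 4.96, 7.14, 5.75 and 7.22 in suckling replicates 1 to 4. Suckling replicates 2 and 4 lay above all weaned arrays, while weaned replicate 3 lay above suckling replicates 1 and 3. The means were 5.40 ± 0.92 in weaned and 6.27 ± 1.11 in suckling piglets (SD, n = 4 each). The mean was 1.82-fold lower in weaned piglets, with a log2 difference of -0.86 (SE 0.60, 95% interval -2.21 to 0.49, limma adjusted p = 0.593). All 4 SCARB1 probes gave lower means in weaned piglets, with differences from -0.86 to -0.72.

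The fatty acid binding proteins FABP1, the liver type, and FABP2, the intestinal type, ferry fatty acids through the cytosol of enterocytes. The FABP1 probe (A_72_P753970) gave 8.48, 8.81, 8.93 and 8.90 in weaned replicates 1 to 4, against 7.93, 8.995, 8.87 and 9.27 in suckling replicates 1 to 4. The 4 weaned values lay inside the suckling range. The FABP1 means were 8.78 ± 0.21 in weaned and 8.77 ± 0.58 in suckling piglets (SD, n = 4 each), a difference of 0.01 (SE 0.28, limma adjusted p = 0.990). Its 95% interval ran from -0.62 to 0.64, from 0.65-fold to 1.56-fold. FABP2 (A_72_P157371) had 6.07, 6.74, 7.12 and 6.81 in weaned replicates 1 to 4, against 5.61, 7.15, 6.86 and 8.44 in suckling replicates 1 to 4. Again the weaned values lay inside the suckling range, whose ends were suckling replicates 1 and 4, 7.07-fold apart. The FABP2 difference was -0.33 (SE 0.52, 95% interval -1.51 to 0.84, limma adjusted p = 0.831). The 3 FABP1 probes and the 2 FABP2 probes gave differences of -0.07 to 0.01 and -0.33 to -0.25.

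ACSL5, an acyl-CoA synthetase that activates long-chain fatty acids for esterification, was nearly level. Its 1 probe (A_72_P403123) gave 5.73, 5.41, 5.58 and 5.88 in weaned replicates 1 to 4, against 5.32, 5.82, 5.32 and 6.27 in suckling replicates 1 to 4. All weaned values lay between the lowest and the highest suckling value. The difference was -0.03 (SE 0.24, limma adjusted p = 0.968), with a 95% interval from 0.68-fold to 1.42-fold.

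DGAT1 and DGAT2 are 2 unrelated enzymes that both add the last fatty acid to diacylglycerol to make triglyceride. The DGAT1 probe (A_72_P146436) gave 3.68, 4.07, 4.52 and 4.06 in weaned replicates 1 to 4, against 2.54, 4.74, 4.51 and 5.37 in suckling replicates 1 to 4. The 4 weaned piglets spanned 1.79-fold and the 4 suckling piglets 7.09-fold. The DGAT1 difference was -0.21 (SE 0.53, 95% interval -1.41 to 0.99, limma adjusted p = 0.902). DGAT2 (A_72_P288804) had -0.48, -1.14, 0.95 and -0.31 in weaned replicates 1 to 4, against -1.58, 1.70, 1.14 and 2.65 in suckling replicates 1 to 4. Suckling replicates 2, 3 and 4 lay above all weaned piglets, and suckling replicate 1 lay below all of them. The means were -0.24 ± 0.88 in weaned and 0.98 ± 1.82 in suckling piglets (SD, n = 4 each). The mean was 2.33-fold lower in weaned piglets, with a log2 difference of -1.22 (SE 0.83, 95% interval -3.10 to 0.66, limma adjusted p = 0.588). The second DGAT2 probe gave -1.18. The spread among suckling piglets, 18.8-fold from replicate 1 to replicate 4, was larger than the difference between the groups.

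The 2 enzymes were also set against each other within each array, a comparison chosen after their values were seen. DGAT2 minus DGAT1 ran from -5.21 to -3.57 in weaned and from -4.13 to -2.72 in suckling arrays. These differences between probes have no meaning as levels, but their change between groups does not depend on how an array was scaled. DGAT2 stood lower relative to DGAT1 in weaned piglets by 1.01 on average, and the ranges overlapped (exact two-sided permutation p = 0.0571, 70 arrangements, smallest possible p = 0.0286). Adjusted over the 3 pairs compared, p was 0.171. Neither p accounts for the choice of the pairs after their values were seen. For SCARB1 minus CD36 the group difference was -0.89 (exact two-sided permutation p = 0.314, adjusted p = 0.400), and for FABP2 minus FABP1 it was -0.34 (exact two-sided permutation p = 0.400, adjusted p = 0.400).

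PLIN2, which coats lipid droplets and is also found in cells other than enterocytes, was the 1 gene of the 8 whose SD was larger in weaned piglets. Its 1 probe (A_72_P088596) gave 0.50, 0.06, -0.65 and -0.33 in weaned replicates 1 to 4, against -0.30, -0.26, -0.11 and -0.57 in suckling replicates 1 to 4. Weaned replicates 1 and 2 lay above all suckling piglets, and weaned replicate 3 lay below all of them. The difference was 0.21 (SE 0.25, 95% interval -0.36 to 0.77, limma adjusted p = 0.777).

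Across the 8 arrays, most of the genes followed a shared order of piglets. Suckling replicate 1 was lowest of all 8 arrays for FABP1, FABP2, DGAT1 and DGAT2, as it was for 19.0% of tested probes. It was highest of all 8 arrays for CD36, as it was for 20.6% of tested probes. For ACSL5 it tied with suckling replicate 3 for the lowest value. Suckling replicate 4 was highest of all 8 arrays for 6 of the 8 genes (SCARB1, FABP1, FABP2, ACSL5, DGAT1 and DGAT2), as it was for 15.0% of tested probes. Among weaned piglets, replicate 3 was highest for 5 of the 8 genes (SCARB1, FABP1, FABP2, DGAT1 and DGAT2), as it was for 26.5% of tested probes. CD36 and PLIN2 had a different order: weaned replicate 3 was lowest of all 8 arrays for both, and suckling replicate 4 was lowest of its group for both. The SD was larger in suckling than in weaned piglets for 7 of the 8 genes, as it was for 68.1% of tested probes.

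**Figure D2:**
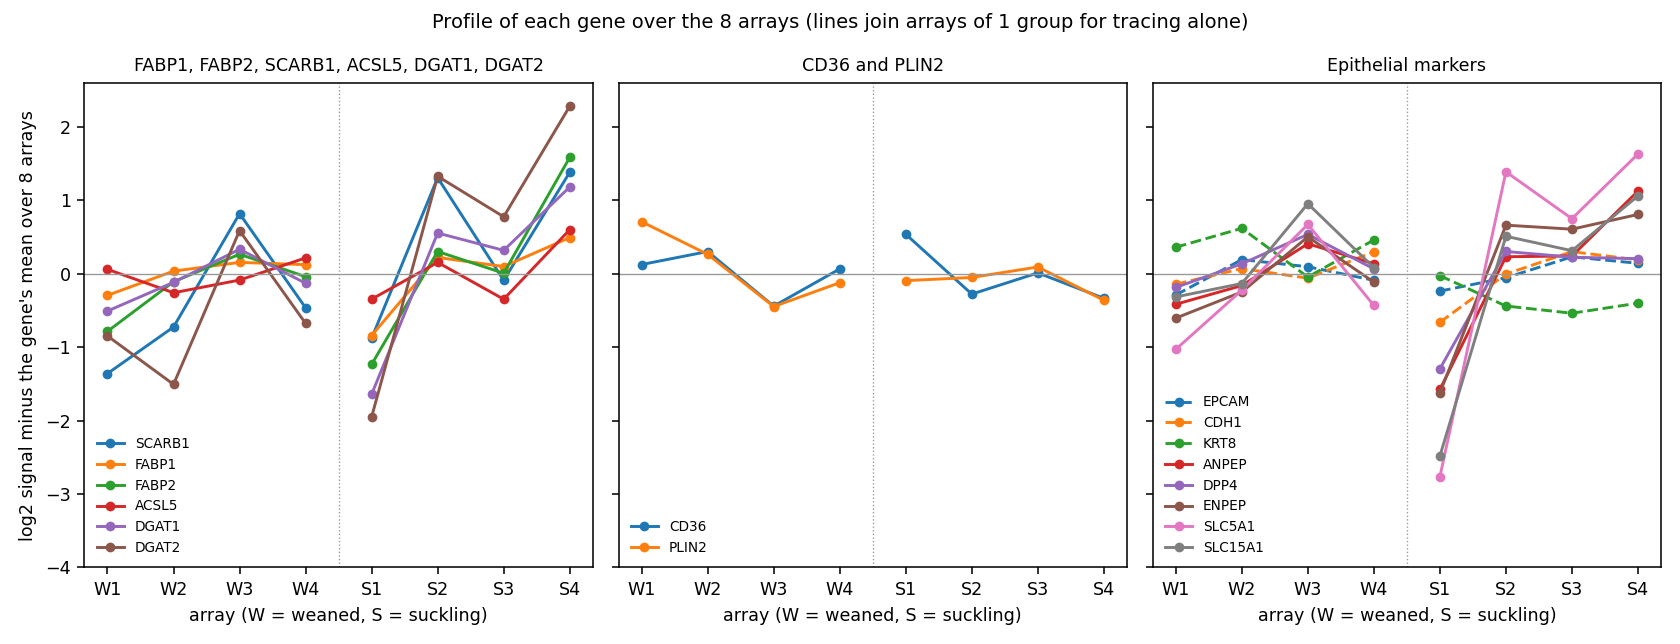
Log2 signal of each gene minus its mean over the 8 arrays, for 6 fat absorption genes (left), for CD36 and PLIN2 (middle) and for 8 epithelial markers (right, the structural EPCAM, CDH1 and KRT8 dashed), with weaned arrays W1 to W4 left of suckling arrays S1 to S4. The split into the left and middle panels was made after the values were seen. Suckling replicate 1 is the lowest of the 8 arrays for all 5 digestive markers and for CDH1, but not for EPCAM or KRT8.

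The 5 digestive markers of the enterocyte (ANPEP, DPP4, ENPEP, SLC5A1 and SLC15A1) were each lowest of all 8 arrays in suckling replicate 1, and all but DPP4 were highest in suckling replicate 4. SLC5A1, the sodium-coupled glucose transporter, had 5.32, 6.13, 7.03 and 5.92 in weaned replicates 1 to 4, against 3.59, 7.75, 7.11 and 7.99 in suckling replicates 1 to 4. Together these 5 summed to between 243 and 500 times the 75th percentile in weaned arrays. In suckling arrays they summed to 103 in replicate 1, 551 in replicate 2, 468 in replicate 3 and 771 in replicate 4. The 3 structural markers differed among themselves in this array. CDH1, the adhesion molecule E-cadherin, was also lowest of all 8 arrays in suckling replicate 1, with 3.69, 3.90, 3.77 and 4.13 in weaned replicates 1 to 4, against 3.17, 3.83, 4.13 and 4.02 in suckling replicates 1 to 4. EPCAM, an adhesion molecule of all gut epithelial cells, was lowest in weaned replicate 1, with 6.48, 6.96, 6.87 and 6.68 in weaned replicates 1 to 4, against 6.53, 6.72, 7.00 and 6.91 in suckling replicates 1 to 4. The 4 markers of crypt proliferation with a probe, of 10 listed, summed to between 13.1 and 22.6 in weaned arrays, against 21.2, 7.33, 13.7 and 7.95 in suckling replicates 1 to 4. KRT8, a keratin of simple epithelium, had 8.65, 8.90, 8.24 and 8.75 in weaned replicates 1 to 4, against 8.26, 7.85, 7.75 and 7.88 in suckling replicates 1 to 4, of which replicate 1 was the highest (difference 0.70, limma adjusted p = 0.218). The 3 structural markers summed to between 433 and 619 in weaned and between 349 and 408 in suckling arrays. Most of that sum came from KRT8 on every array. EPCAM and CDH1 differed by -0.04 and 0.09 (limma adjusted p = 0.939 and 0.906). The part of the epithelial makeup of each piece in the values of the fat absorption genes was not tested. When each array was centred on the median of EPCAM, CDH1 and KRT8 instead, the DGAT2 difference was -1.18 and the SCARB1 difference -0.82 (limma adjusted p = 0.784 and 0.793). On every array EPCAM was the middle of the 3, so this centring rested on EPCAM alone. None of the 8 genes passed on that scale, on which 0.0753% of probes did. Of the other cell types, the 2 goblet cell markers with a probe summed to between 50.3 and 120 in weaned and between 21.5 and 153 in suckling arrays. Most of that sum came from CLCA1, which differed by 0.32, while the dimmer SPDEF differed by 1.10 (limma adjusted p = 0.863 and 0.283). The 3 smooth muscle markers ran from 65.4 to 233 in weaned and from 122 to 268 in suckling arrays, and the 3 fibroblast markers from 45.7 to 66.7 in weaned and from 52.4 to 84.0 in suckling arrays. The 2 macrophage markers ran from 5.44 to 13.95 in weaned and from 3.18 to 16.2 in suckling arrays. Most of that sum came from CD163, which differed by 0.64, and the dimmer CD14 differed by 0.79 (limma adjusted p = 0.690 and 0.357). The 7 lymphocyte markers ran from 3.47 to 5.47 in weaned and from 3.28 to 4.71 in suckling arrays. No marker on these lists passed the threshold.

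Another gene high in weaned replicate 3 was FABP6, the bile acid binding protein known from the ileum, the last stretch of the small intestine. FABP6 had -2.77, -1.22, 1.82 and -2.38 in weaned replicates 1 to 4, against -1.93, -3.92, -0.91 and -3.47 in suckling replicates 1 to 4. FABP6 was highest in weaned replicate 3, the array with the highest weaned SCARB1 and DGAT2. Among suckling arrays FABP6 was highest in replicate 3, while SCARB1 and DGAT2 were highest in replicate 4. The second ileal marker, the bile acid transporter SLC10A2, had -3.78, -2.98, -3.30 and -1.50 in weaned replicates 1 to 4, against -4.27, -4.57, -5.90 and -7.73 in suckling replicates 1 to 4. Every weaned value was higher than every suckling value (limma adjusted p = 0.232), but the probe was not well above background on 2 of the 4 suckling arrays, so the size of the difference is not given. Whether the pieces came from matching points along the gut was not tested. Without weaned replicate 3, SCARB1 differed by -1.28 and DGAT2 by -1.62 (limma adjusted p = 0.398 and 0.476), and 0.0663% of tested probes passed.

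Without suckling replicate 1, still none of the 8 genes passed the threshold, while 1.82% of 30359 tested probes did. An unadjusted p under 0.05 was reached by 3 of the 8 (SCARB1, DGAT1 and DGAT2), against 22.5% of tested probes. DGAT2 was then the 1 gene whose groups did not overlap. A lack of overlap with lower values in weaned piglets was found for 8.35% of tested probes in these 7 arrays. The DGAT2 difference was -2.07 (SE 0.51, 95% interval -3.25 to -0.90, limma adjusted p = 0.0753). DGAT1 differed by -0.79 (SE 0.26, limma adjusted p = 0.134), FABP2 by -0.80 (SE 0.40, limma adjusted p = 0.274) and SCARB1 by -1.30 (SE 0.54, limma adjusted p = 0.205). FABP1 differed by -0.27 (SE 0.17, limma adjusted p = 0.397). ACSL5 differed by -0.15 (limma adjusted p = 0.741). CD36 and PLIN2 had higher means in weaned piglets, both by 0.21 (limma adjusted p = 0.574 and 0.695). The median of the 8 differences was -0.53 without this array, against 0.05 over all tested probes. Without suckling replicate 4, the median of the 8 differences was 0.13, and DGAT1 and FABP2 differed by 0.15 and 0.14.

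**Figure D3:**
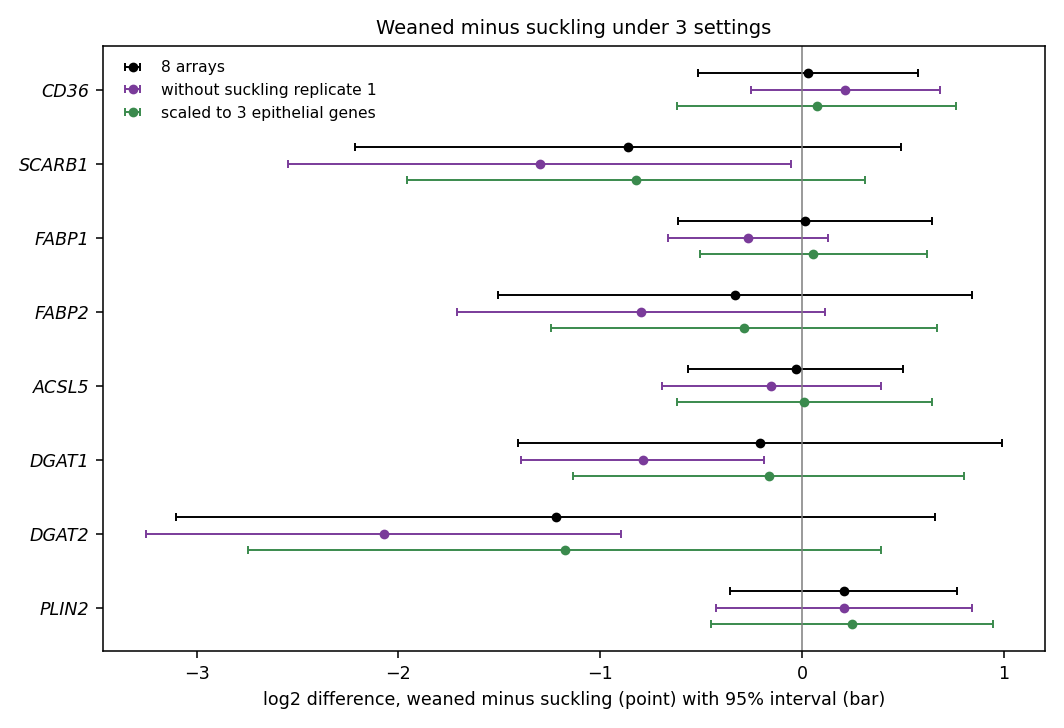
Log2 difference, weaned minus suckling, of the 8 genes (point) with its 95% interval (bar), for all 8 arrays (black), without suckling replicate 1 (purple) and with each array centred on the median of EPCAM, CDH1 and KRT8 (green). That median was the EPCAM value on every array. All intervals from 8 arrays include 0, and those of SCARB1, DGAT1 and DGAT2 lie below 0 without suckling replicate 1.

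The other genes of lipid handling numbered 109, of which 68 had a probe and 64 were tested. None passed the threshold among all 8 arrays. An unadjusted p under 0.05 was reached by 8 of the 64, a share near the 12.3% of all tested probes. Of the 64, 30 had higher and 34 lower means in weaned piglets, with a median difference of -0.06. Without suckling replicate 4, 37 had higher and 27 lower means. With all 8 arrays, the groups did not overlap for 7 of the 64 (10.9%, against 7.76% of tested probes). Values were higher in weaned piglets for 6 of these and lower for 1, against 4.93% and 2.83% of tested probes. The smallest p belonged to SREBF1, a transcription factor that drives lipid synthesis. It had 1.74, 1.62, 1.83 and 1.70 in weaned replicates 1 to 4, against 1.00, 0.76, 0.86 and 1.15 in suckling replicates 1 to 4. Every weaned piglet lay above every suckling piglet, and the difference was 0.78 (SE 0.14, limma adjusted p = 0.0890), although the second SREBF1 probe gave 0.07. PPARG, a fatty acid sensing nuclear receptor, had 2.42 ± 0.21 in weaned and 1.13 ± 0.70 in suckling piglets (SD, n = 4 each; limma adjusted p = 0.194), and 1 of its 3 probes pointed the other way, at -0.94.

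**Figure D4:**
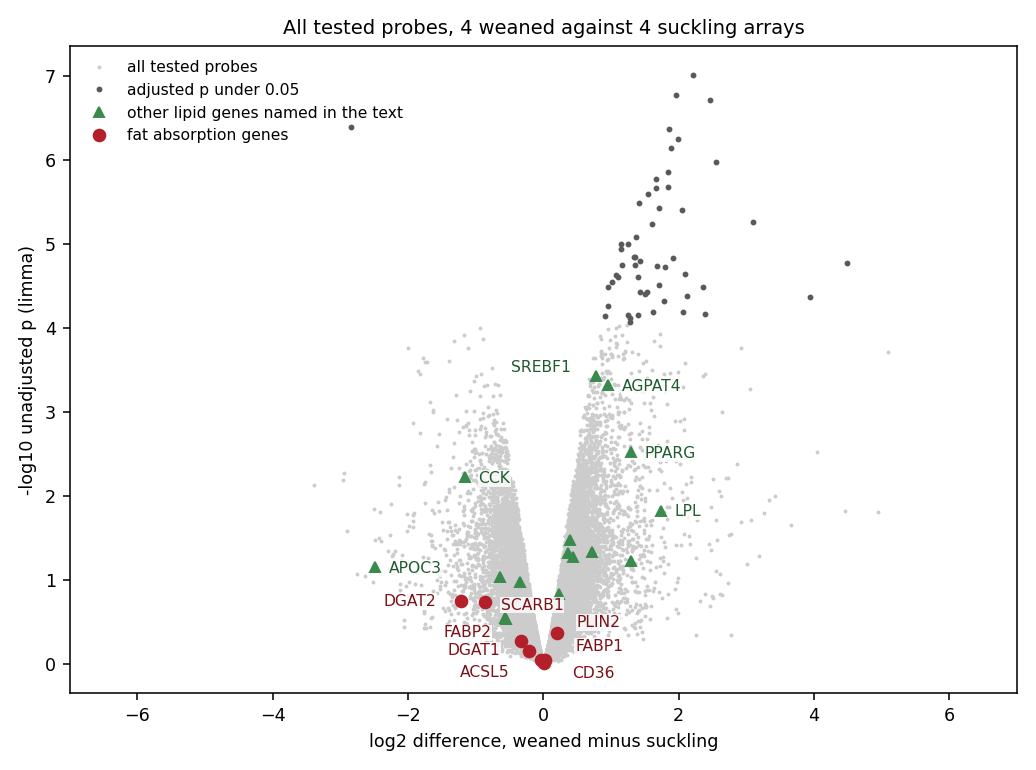
Unadjusted p by limma (on the -log10 scale) against the log2 difference, weaned minus suckling, of all tested probes (light grey), those past the threshold (dark grey), the 8 fat absorption genes (red) and other lipid genes named in the text (green). The 8 genes lie low in the plot, and SREBF1 and AGPAT4 lie higher but below the probes that passed.

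The 13 tested genes of glycerolipid synthesis up to diacylglycerol had 5 higher and 8 lower means in weaned piglets. AGPAT4, of the family that acylates lysophosphatidic acid, had -0.86, -0.88, -1.22 and -0.98 in weaned replicates 1 to 4, against -2.37, -1.78, -1.78 and -1.84 in suckling replicates 1 to 4. Its groups did not overlap, with a difference of 0.96 (SE 0.18, limma adjusted p = 0.0976), and all 3 of its probes had higher means in weaned piglets. GPAT4, which begins glycerolipid synthesis, differed by 0.24 (limma adjusted p = 0.560). The 4 tested acyl-CoA synthetases other than ACSL5 (ACSL1, ACSL3, ACSL4 and ACSS2) had higher means in weaned piglets with all 8 arrays. For ACSL3, which differed by 0.11, this hung on suckling replicate 1, at 2.35. The other suckling arrays lay between 4.83 and 5.66, and the weaned arrays between 4.01 and 4.94. ACSL4, which favours arachidonic acid, differed by 0.39 and ACSL1, a broad long-chain form, by 0.37 (limma adjusted p = 0.364 and 0.399).

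Among the 7 uptake genes tested, LPL, the lipase that frees fatty acids from circulating lipoproteins at vessel walls, had 1.28, 0.52, -0.39 and 0.94 in weaned replicates 1 to 4, against 0.29, -2.38, -0.70 and -1.82 in suckling replicates 1 to 4. The groups overlapped through suckling replicate 1, and the difference was 1.74 (SE 0.58, limma adjusted p = 0.296). All 5 LPL probes had higher means in weaned piglets. CAV2, a caveolin, differed by -0.35 (limma adjusted p = 0.505), and 1 of its 4 probes pointed the other way, at 0.18. Of the 8 other binding proteins tested, 4 had higher and 4 lower means in weaned piglets. FABP3, the heart type, had 3.73 ± 0.84 in weaned and 2.44 ± 1.17 in suckling piglets, and FABP4, the adipocyte type, -1.02 ± 0.59 in weaned and -0.39 ± 0.51 in suckling piglets (SD, n = 4 each; limma adjusted p = 0.429 and 0.487).

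Lipid droplet and lipolysis genes divided into 6 higher and 5 lower of 11 tested. FITM2, which helps droplets bud, differed by 0.71 (limma adjusted p = 0.394). It was well above background on only 2 of 4 suckling arrays, so the size of this difference is uncertain. BSCL2, the droplet protein seipin, differed by 0.44 (limma adjusted p = 0.413). All 6 tested genes of chylomicron assembly had lower means in weaned piglets with all 8 arrays. For MTTP and SAR1B, which differed by -0.22 and -0.18, this hung on suckling replicate 4, at 7.775 and 4.27. APOC3, an apolipoprotein that slows lipoprotein clearance, had 3.82, 4.79, 7.47 and 6.11 in weaned replicates 1 to 4, against 4.34, 9.13, 8.94 and 9.71 in suckling replicates 1 to 4 (difference -2.48, SE 1.21, limma adjusted p = 0.449). APOA4, made by enterocytes during fat absorption, differed by -0.56 (limma adjusted p = 0.690). LRAT, which esterifies retinol, differed by -0.56 (limma adjusted p = 0.685). CCK, the hormone released when fat enters the gut, had 4.03 ± 0.27 in weaned and 5.19 ± 0.69 in suckling piglets, with groups that did not overlap (SD, n = 4 each; limma adjusted p = 0.232). Of the other enteroendocrine markers with a probe, CHGB, a granin of secretory granules, differed by -0.94, the granin CHGA by -0.10 and the glucagon gene GCG by 0.09 (limma adjusted p = 0.157, 0.853 and 0.946). These 3 summed to between 2.34 and 2.84 times the 75th percentile in weaned and between 3.21 and 5.03 in suckling arrays, and with CCK, the brightest, to between 15.8 and 23.2 in weaned and between 28.0 and 73.1 in suckling arrays.

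**Figure D5:**
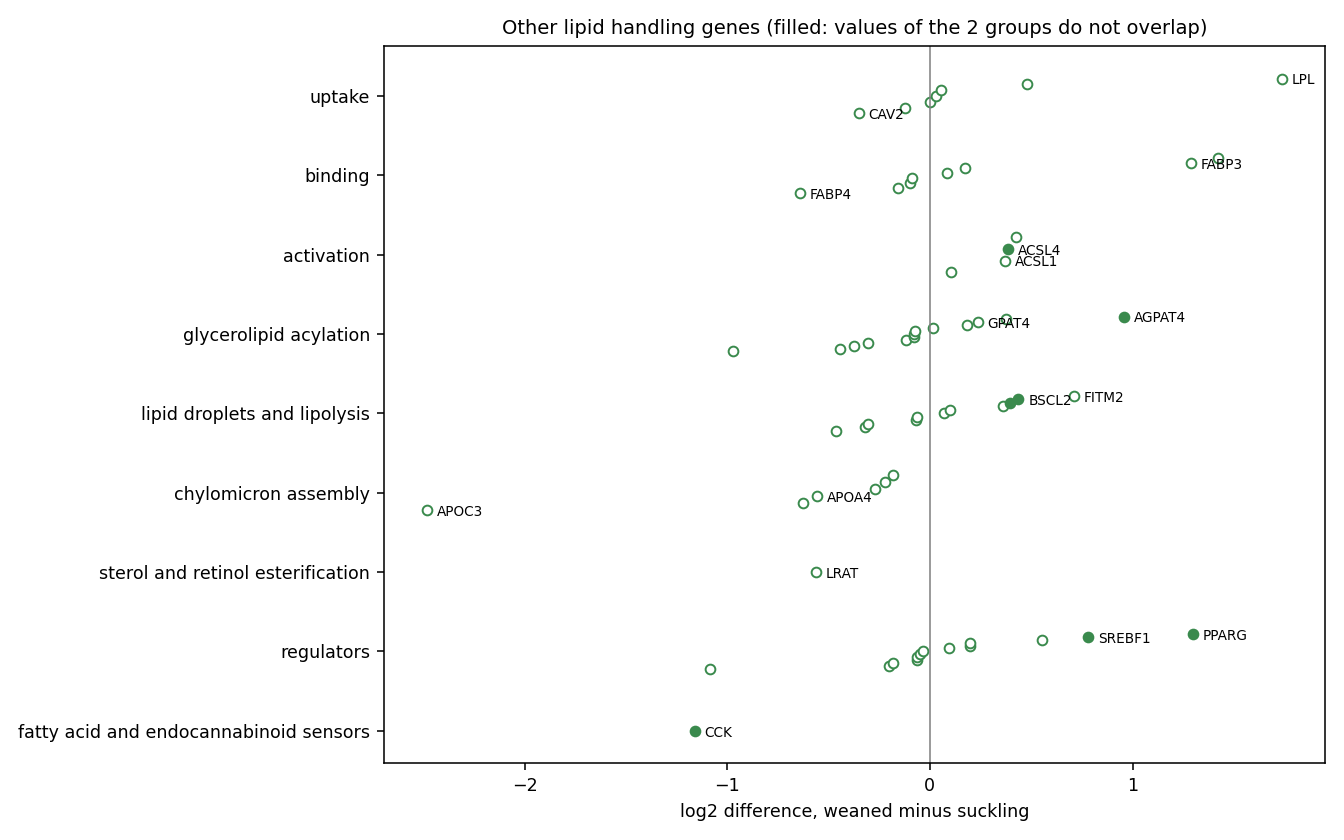
Log2 difference, weaned minus suckling, of the 64 other lipid handling genes tested, 1 point per gene, by role, filled where the values of the groups do not overlap. With all 8 arrays, the 6 chylomicron assembly genes lie left of 0 and the 4 acyl-CoA synthetases right of it. None of the 64 passed the threshold.

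Without suckling replicate 1, 3 of the 64 genes passed the threshold (1.82% of tested probes did). An unadjusted p under 0.05 was then reached by 26 of the 64, against 22.5% of tested probes. GPAT3 was named after its values were seen. GPAT3, which begins glycerolipid synthesis, was lower by 1.12 in weaned piglets (log2, SE 0.18, limma adjusted p = 0.0349). With all 8 arrays GPAT3 differed by -0.38 (limma adjusted p = 0.844). Suckling replicate 1 was at -0.48 and the other suckling arrays between 2.31 and 2.73. AGPAT4 and SREBF1 were higher in weaned piglets by 0.82 and 0.80 without this array (limma adjusted p = 0.0413 and 0.0446). Next by p among the named genes were APOC3 (-3.71), LPL (2.22) and LRAT (-1.10), with limma adjusted p = 0.0533, 0.0584 and 0.0673.

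The genes whose profile over the 8 arrays lay closest to the median profile of the 8 fat absorption genes were SAR1B, CDS1, SRI, POR and DAZAP2, out of 2765 symbols compared. Their root mean square distances to that profile were 0.08, 0.10, 0.13, 0.16 and 0.17 on the log2 scale. SAR1B encodes the small GTPase that buds chylomicron carriers from the endoplasmic reticulum. It had 2.90, 3.29, 3.61 and 3.22 in weaned replicates 1 to 4, against 2.58, 3.44, 3.45 and 4.27 in suckling replicates 1 to 4. As in DGAT1, suckling replicates 1 and 4 were the ends of the range and the weaned values lay between them. The distance is a description of these 8 arrays, which share the same piglets and scaling.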

How the data were processed

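Per the labels' protocols, RNA (integrity number 7.0 or more) was labelled with Cy3 for 1-colour arrays. The deposited scanner files hold intensity values that Agilent Feature Extraction 10.7 had background-subtracted, per the file headers. The deposited series table holds log2 values whose rank order followed these intensities within each array. Its 8 columns share 1 distribution, with medians of 5.50. Its normalization and centring are not given in the sources used here.

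Control spots were left out, outlier-flagged spots set to missing and spots of a probe averaged. Each array's 75th percentile was subtracted from log2 intensity. Probes well above background on at least 4 arrays, with at least 3 values per group, were tested (30554 of 43603) with limma 3.58.1 in R 4.3.3, two-sided, with group as the sole term. The code was tested on simulated data. On each array 67.6% to 71.0% of probes stood well above background, and the number of arrays limits the precision. RefSeq accessions were named through a table of Sscrofa11.1, which named 6924 probes. No coordinates or sequences were used.

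The text names the 8 genes, other lipid genes past the threshold and the 2 with the smallest p in each role, marker genes and the 5 nearest profiles. GPAT3 and the within-array pairs were chosen after their values were seen. The members and lists were chosen with earlier results of these data known. The labels tie no replicate number to a litter. Alternatives were quantile and median normalization, normexp, epithelial scaling, other filters, flagged spots kept, a trended robust prior, array weights, a replicate block, the deposited table, other probe choices and each array left out. Epithelial scaling was in effect scaling to EPCAM. Slide could not be used as a block, because each slide held 1 group.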

Additional observations from a re-analysis of the deposited data

Results flagged for a closer look

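In 126 groups of 4 values, 10 had 1 array far from the other 3. The groups were the weaned and the suckling values of each gene named with a level or a place in the report, of the summed markers, of the 3 within-array differences, of the median profile of the fat absorption genes and of the 75th percentile of intensity. Chance alone picks out about 5% of groups, and groups that share an array are not independent. Given in parentheses is the distance from that array to its nearest neighbour as a share of the group's range. Suckling replicate 1 was the low array for APOC3 (0.856), APOA4 (0.856), AGPAT4 (0.905), LRAT (0.833), GPAT3 (0.870), DPP4 (0.939) and ENPEP (0.917). Suckling replicate 3 was the high array for the summed smooth muscle markers (0.890), and weaned replicate 3 for the summed ileal markers (0.901). Among weaned arrays, the 75th percentile was lowest in replicate 1, at 315 intensity units (0.907). None of the 8 fat absorption genes was among the 10.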

How the results depend on the processing

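None of the 8 fat absorption genes passed the threshold under any alternative run, and the lowest limma adjusted p, that of DGAT2 without suckling replicate 1, was 0.0753. DGAT2 and SCARB1 kept lower means in weaned piglets throughout (-2.07 to -0.66 and -1.30 to -0.55), and PLIN2 a higher mean (0.0023 to 0.39). Of 165 values of single genes, 23 changed sign, and the cause was not tested. CD36 was -0.0120 under quantile normalization, -0.0139 under median scaling, -0.0699 under normexp, -0.0165 in the deposited table, -0.0029 as the mean of its probes and -0.0720 by the second brightest probe. FABP1 was -0.0306 under median scaling, -0.0268 as the mean of its probes, -0.15 with array weights and -0.0711 by the second brightest probe. ACSL5 was 0.011 with epithelial scaling. Leaving out 1 array at a time gave -0.0776 to 0.21 for CD36, -0.27 to 0.18 for FABP1, -0.15 to 0.16 for ACSL5, -0.80 to 0.14 for FABP2 and -0.79 to 0.15 for DGAT1. The lower means numbered 5 of 8 with 8 arrays, 7 under median scaling, 4 with epithelial scaling and 3 without suckling replicate 4. Of all tested probes, 54 passed with 8 arrays (53 higher, 1 lower), 76 under normexp (66 higher, 10 lower), 23 with epithelial scaling, 328 with array weights, 0 with the replicate block (limma; 4195 at an unadjusted p under 0.05) and 9 (without weaned replicate 4) to 553 (without suckling replicate 1) with 1 array left out. Of the 64 other lipid genes, 0 passed with 8 arrays, 1 under normexp (SREBF1), 2 with array weights (AGPAT4 and SREBF1) and 0 to 3 with 1 array left out (3 without suckling replicate 1). Deviations of same-numbered arrays from their group means correlated over probes at 0.368, 0.008, 0.186 and -0.018 for numbers 1 to 4. These values cannot show whether same-numbered piglets were littermates. The numbers were not taken as pairs because the labels tie none of them to a litter. The block changed no call among the lipid genes.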
